A study of Mus musculus with 24 samples.

Results

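The comparison described here sets the retinal pigment epithelium of mice taken 1 h after light onset against that of mice taken at light onset itself (0 h), and uses 6 of the 24 libraries of a time course. The retinal pigment epithelium (RPE) is a single sheet of pigmented cells behind the retina, which nourishes the photoreceptors and clears the tips they shed. The series design gives 3 mice at each of 8 times (0, 1, 3, 5, 6, 9, 15 and 16 h after lights came on at 7 am) and names rhythmic control of autophagy and lysosomal genes as its question. Both groups were wild-type 129S1/SvlmJ mice with the Leu450 form of Rpe65, kept in cyclic light with a 12 h light phase and fed a standard diet, so strain, genotype, diet and lighting were shared. Age and sex were not given in the labels used here, and no mice kept in the dark at 1 h are among the samples, so a response to light and a change by the hour of day cannot be told apart. The members were chosen by their time label alone. The spread was fitted over 22 libraries, leaving out mouse 3 of 6 h and mouse 3 of 15 h. Those libraries stood apart in composition: mitochondria-encoded transcripts took 3.22% and 0.708% of their counts, against 3.76 to 6.64% in the other 22.

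Rods renew their outer segments every day, and in rodents a burst of shedding follows light onset. RPE cells bind the shed tips through integrin alpha v beta 5 and its ligand Mfge8, engulf them after the receptor kinase Mertk is engaged by Gas6 or Protein S, and digest them in lysosomes. The RPE also carries its own circadian clock, in which Per and Cry proteins repress the Clock and Bmal1 (Arntl) activator pair, and it sees hormones of the blood, such as corticosterone, through the choroid.

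The 6 libraries held 14718683 to 16744877 counts. Mitochondria-encoded transcripts took 4.52 to 6.64% of them and cytosolic ribosomal protein genes 0.922 to 1.06%. All 15 RPE markers were detected in every library, and their summed level was 37363 to 44008 CPM (read counts scaled to library size) at 0 h and 37508 to 44777 at 1 h, which overlap. The 13 mitochondria-encoded genes had a median log2 difference of -0.30 with 0 positive and 0 called, 2 at an unadjusted p under 0.05 and 0 by DESeq2 or limma-voom, and their sums overlapped (48272 to 67426 CPM and 45273 to 55349 CPM); their part in the results was not tested. Rod transcripts were also present in all 6 libraries and differed between the groups, as given with the falling genes.

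Of 18388 genes tested, 62 were called at an adjusted p under 0.05 by edgeR's quasi-likelihood test with Benjamini-Hochberg adjustment, or 0.337% of those tested. At 1 h 37 genes were higher (0.201%) and 25 were lower (0.136%), while 2417 had an unadjusted p under 0.05. For each of the 62, the 3 values at 1 h lay all above or all below the 3 values at 0 h. The same was so for 8.74% of all genes tested in the upward direction and 8.88% in the downward direction. The 62 were picked by a test on these same values, so their separation, here and for single genes below, is no further support. Most of the called changes were modest, with a median log2 change of 0.57 among the higher genes and a median size of 0.63 on the log2 scale among the lower ones. Changes beyond 1 on the log2 scale were called for 5 higher and 7 lower genes.

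The calls differed in how firmly they stood. Per1 and Cish were called in all 19 alternative fits. Per2, Bmp4, Etv5, Klf9, Nmt2 and Syne1 were called in each of the 6 fits that left out a library of 0 h or 1 h, and lost the call when all 24 libraries set the spread and when the level of the leukocyte gene Ptprc was a covariate. Abr was likewise called in all 6, and lost its call in those alternatives and when the median log2 level of the rod markers entered as a covariate. The Ptprc level and the summed rod markers did not overlap between the groups, so such covariates run alongside the comparison itself. A call lost with them cannot show that a gene followed cell content. Of the remaining 53 genes, 10 were called in 4 or 5 of the 6 fits, 29 in 2 or 3, and 14 in 0 or 1. Of the 62, 12 were still called when mouse 1 of 0 h was left out, 21 for mouse 2 and 59 for mouse 3, and 33, 16 and 35 for mice 1, 2 and 3 of 1 h. The adjusted p given below with a left-out mouse is the highest for that gene over these 6 fits. With all 24 libraries only Per1 and Cish were called, so every other call below depends on leaving out the libraries that stood apart. The fit on the 6 libraries of 0 h and 1 h alone kept 19 of the 62 calls, 16 of them higher and 3 lower. Most calls, and nearly all of the falls, thus also depend on the spread estimated with the other times.

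**Figure D1:**
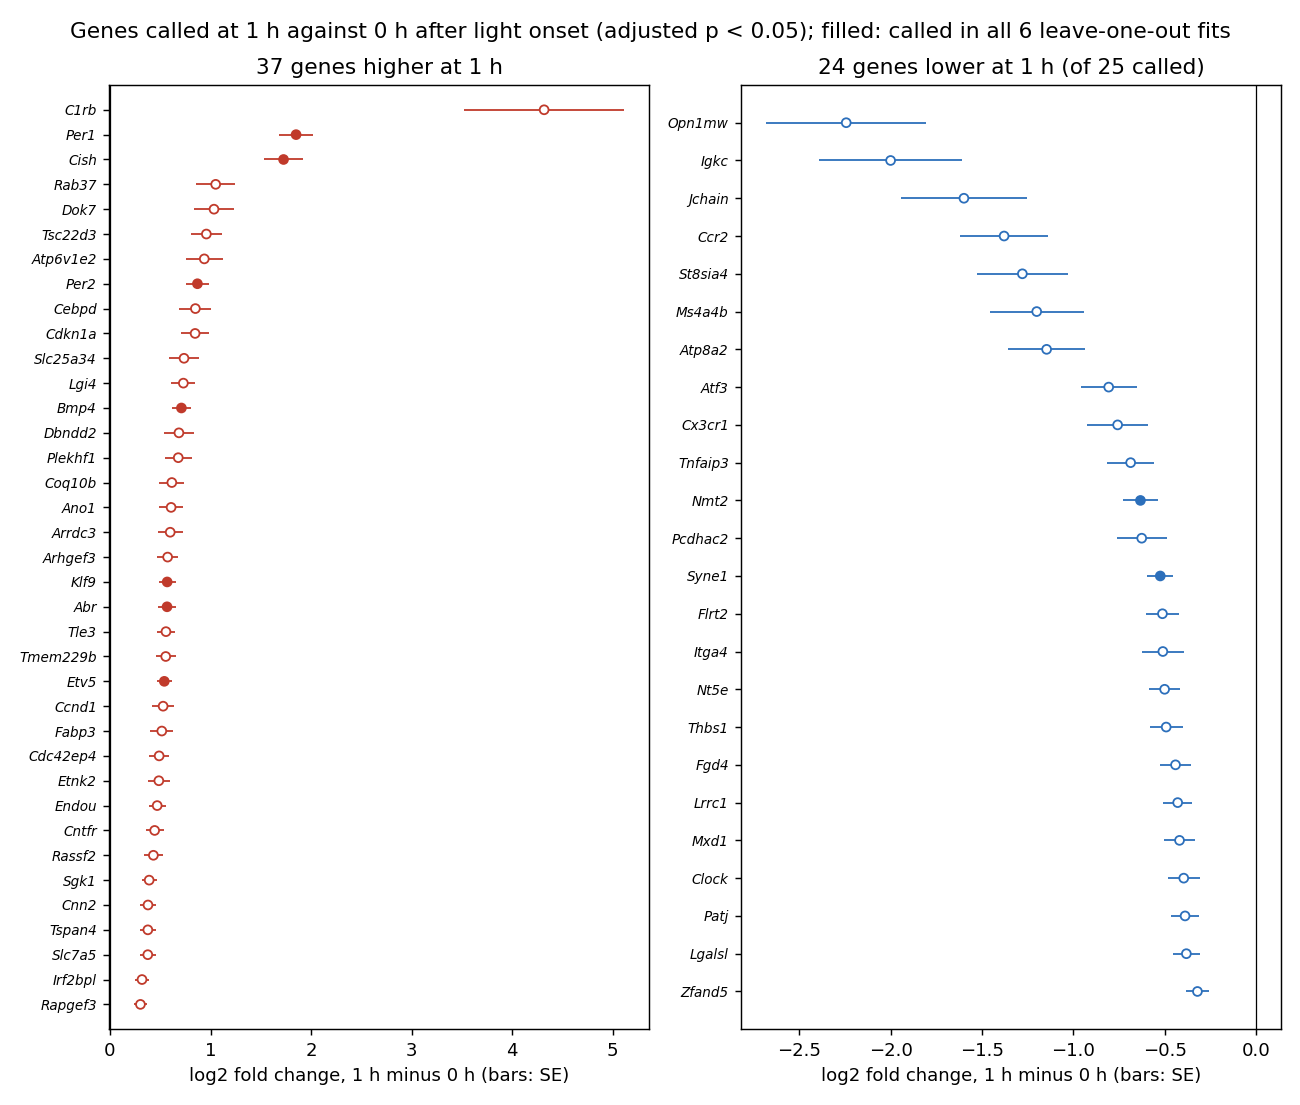
The log2 fold change at 1 h against 0 h (horizontal axis, bars show the standard error) of the 37 genes called higher, in red, and of 24 of the 25 called lower, in blue, ordered by size. Filled points mark the 9 genes that were called in all 6 fits that left out a library of 0 h or 1 h; most of them have log2 changes between 0.5 and 1 in size, while several of the largest changes, such as those of C1rb, Opn1mw and Igkc, are open points with wide bars.

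Among clock genes, the repressors Per1 and Per2 rose and the activator Clock fell. Of 26 clock genes tested, these 3 were called, where 0.337% of all genes tested were. The median log2 change over the list was 0.10, against 0.01 over all genes tested. Per1 (ENSMUSG00000020893, chromosome 11, 69095217 to 69109960) stood at 33.3, 28.8 and 33.8 CPM in the 3 mice of 0 h and at 118, 106 and 122 CPM in those of 1 h. It rose by 1.85 on the log2 scale (SE 0.17, adjusted p = 0.00012). Per2 (ENSMUSG00000055866, chromosome 1, 91415982 to 91459324, minus strand) stood at 23.02, 31.7 and 32.1 CPM at 0 h and at 49.7, 54.2 and 54.5 CPM at 1 h, a log2 rise of 0.87 (SE 0.11, adjusted p = 0.00034). Every mouse of 1 h was above every mouse of 0 h for both genes. The third Period gene, Per3, had 50.7 to 58.2 CPM at 0 h and 61.8 to 80.1 at 1 h, and its log2 change of 0.40 just missed the threshold (adjusted p = 0.0524).

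Clock itself was at 116, 106 and 95.7 CPM at 0 h and at 82.6, 82.2 and 76.6 CPM at 1 h. Its log2 change of -0.40 (SE 0.09) was the call nearest to the threshold of the list (adjusted p = 0.0495). It was called in 1 of the 6 fits that left out a library, with an adjusted p of 0.258 without mouse 1 of 0 h. Arntl, the partner of Clock, was 26.2 to 32.7 CPM at 0 h and 19.1 to 23.2 at 1 h, with a log2 difference of -0.44 that was not called (adjusted p = 0.156). Nr1d1, a nuclear receptor that represses Arntl, differed by 0.03 (adjusted p = 0.946), and its groups overlapped.

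Glucocorticoid targets, genes known to be raised by the adrenal hormone through its nuclear receptor, were the list with the most calls. Of 26 tested, 6 were called higher (Per1, Klf9, Cdkn1a, Tsc22d3, Sgk1 and Cebpd) and 0 lower. The list's median log2 change was 0.50, 20 members were positive, and for 14 the groups did not overlap, all with 1 h above 0 h. Over all genes tested, 0.201% were called higher, 51.4% were positive and 8.74% had all values at 1 h above those at 0 h. Earlier results of these data had already shown this list high at 1 h, so its direction is not independent evidence. Per1 belongs to this list, to the clock list and to the list of cAMP targets, where it was the one call among 24 genes.

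Tsc22d3 (ENSMUSG00000031431, chromosome X, 140539528 to 140600659, minus strand) encodes GILZ, a mediator of glucocorticoid action. Its level was 40.2, 42.5 and 50.8 CPM at 0 h and 81.1, 96.9 and 81.5 CPM at 1 h, a log2 rise of 0.96 (SE 0.15, adjusted p = 0.0104). Klf9 (ENSMUSG00000033863, chromosome 19, 23141226 to 23166911), a zinc finger transcription factor, went from 53.9, 56.4 and 49.6 CPM to 76.6, 82.6 and 77.9 CPM (0.57, SE 0.09, adjusted p = 0.0018). Cdkn1a, the cell cycle inhibitor p21, went from 11.2, 15.0 and 15.6 CPM to 24.3, 27.2 and 23.7 CPM (0.85, SE 0.14, adjusted p = 0.00535). None of these 3 genes had a mouse of 0 h within the range of 1 h.

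Sgk1, a kinase that regulates ion transport, is abundant in these libraries. It was at 981, 1005 and 1017 CPM at 0 h and at 1263, 1269 and 1402 CPM at 1 h, a log2 rise of 0.39 (SE 0.08, adjusted p = 0.0172). Cebpd, a bZIP transcription factor, was at 73.6, 63.6 and 47.6 CPM at 1 h against 29.5, 32.5 and 40.5 CPM at 0 h (0.85, SE 0.16, adjusted p = 0.0218). Of the exonic bases of Cebpd, 15% are shared with Spidr on the opposite strand, so its reads are less certain.

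Other members lay above their 0 h values without a call. Fkbp5, a co-chaperone of the receptor, had 19.3 to 26.4 CPM at 0 h and 26.7 to 40.9 at 1 h (0.64, adjusted p = 0.123). Pdk4, which restrains pyruvate entry into mitochondria, had 9.79 to 12.2 CPM and 15.8 to 18.4 CPM (0.66, adjusted p = 0.0795). Nfkbia (0.50, adjusted p = 0.0637) and Ddit4 (0.43, adjusted p = 0.0812) were close to the threshold. The receptor gene Nr3c1 differed by -0.12 (adjusted p = 0.584), and Dusp1, both a glucocorticoid target and an immediate early gene, by -0.30 (adjusted p = 0.717).

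The count of called glucocorticoid targets was 10 with DESeq2 and 6 with limma-voom. Leaving out a mouse of 0 h gave 2 (mouse 1), 3 (mouse 2) or 9 (mouse 3), and a mouse of 1 h gave 5, 2 and 5 in the same order. It was 3 with the median log2 level of the rod markers as a covariate, and 1 (Per1) with the Ptprc level as a covariate or with all 24 libraries. The highest adjusted p among the fits without 1 library came from leaving out mouse 1 of 0 h for Tsc22d3 (0.08), Cdkn1a (0.0616), Sgk1 (0.0936) and Cebpd (0.149). The list's median stayed between 0.35 and 0.55 in the fits that left out 1 library.

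**Figure D2:**
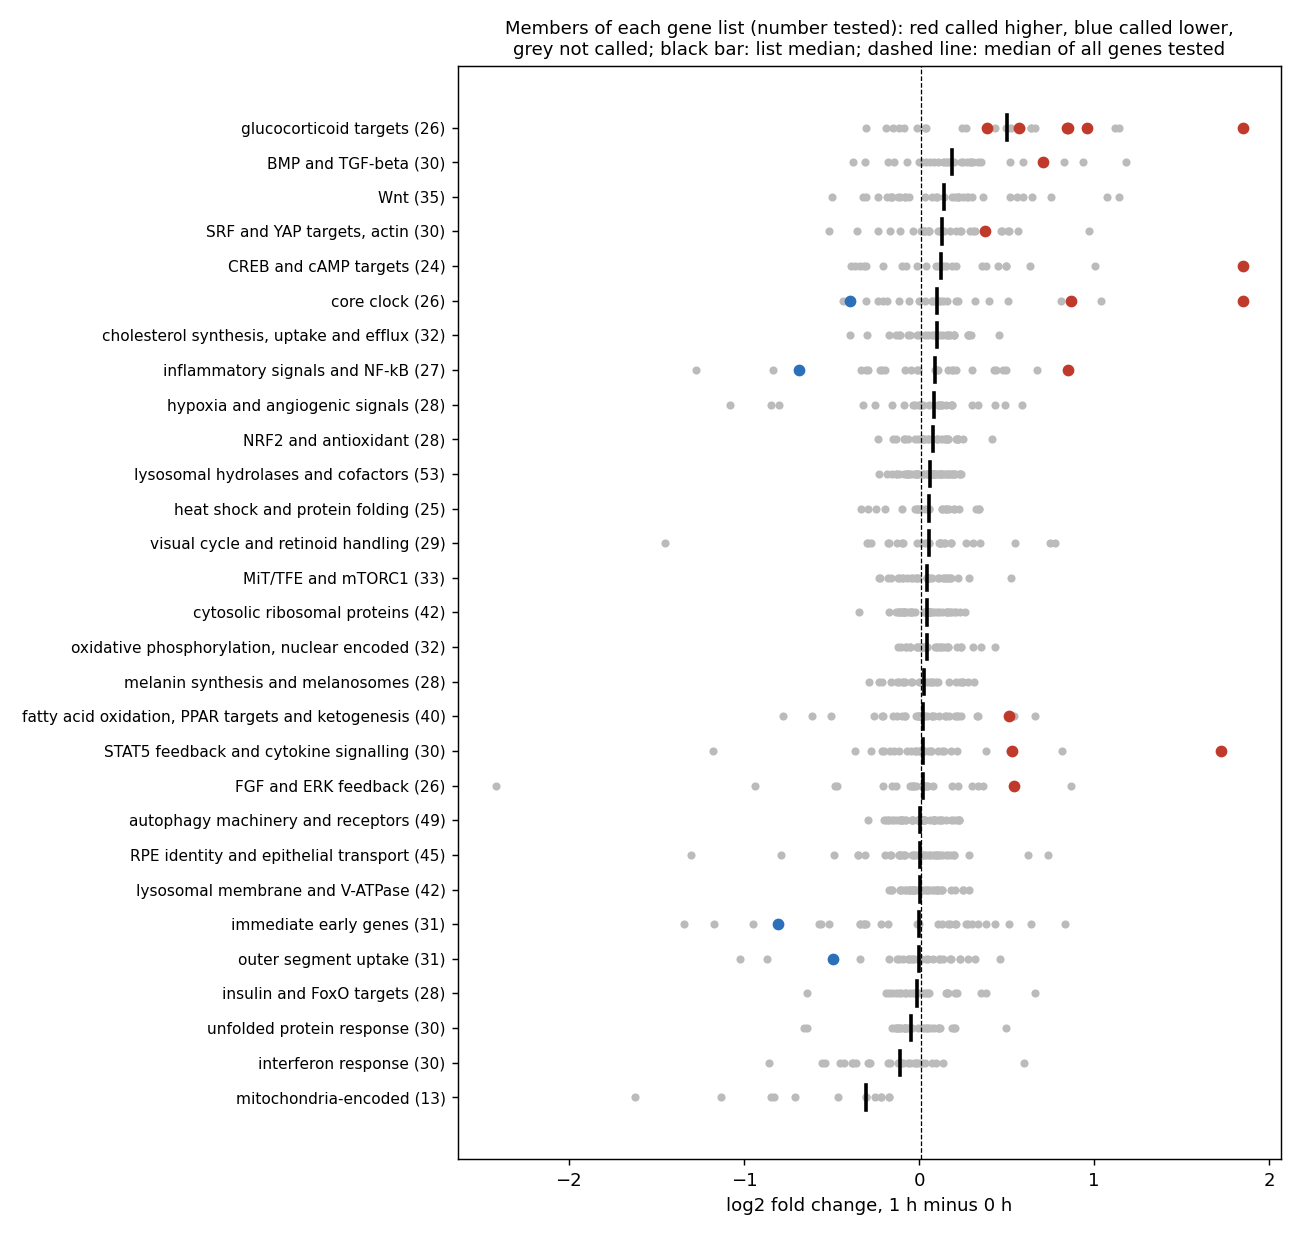
The log2 change at 1 h against 0 h of each tested member (points) of 29 gene lists, with the number tested after each name. Red and blue points are genes called higher and lower, black bars are list medians and the dashed line is the median of all genes tested; the glucocorticoid list has the highest median, 0.50, and the mitochondria-encoded list the lowest, -0.30.

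The lists of STAT5 and cytokine signalling, BMP and TGF-beta, and FGF and ERK feedback gave 1 or 2 calls each. Other signalling lists gave none: 0 of 35 Wnt genes, 0 of 28 insulin and FoxO targets and 0 of 28 hypoxia and angiogenic signals. Of all genes tested 0.337% were called. Cish (ENSMUSG00000032578, chromosome 9, 107296026 to 107302784), an inhibitor that cytokine receptors induce through STAT5, went from 6.07, 11.7 and 9.02 CPM to 29.4, 28.3 and 30.9 CPM, a log2 rise of 1.73 (SE 0.20, adjusted p = 0.00018). Of its exonic bases, 11.5% are shared with other genes, mainly Gm17041 on the opposite strand. Of 30 genes of STAT5 feedback and cytokine signalling, only Cish and Ccnd1 were called by this test, and the list's median was 0.02. Ccnd1, which encodes cyclin D1, was at 93.0, 88.1 and 85.1 CPM at 0 h and at 131, 136 and 117 CPM at 1 h (0.53, SE 0.11, adjusted p = 0.034). Without mouse 2 of 1 h its adjusted p was 0.15, and 23.4% of its exonic bases are shared with a gene on the opposite strand.

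The close relatives of Cish did not share a clear change. Socs2 differed by 0.52 (adjusted p = 0.259) with overlapping groups, and Socs3 by 0.11 (adjusted p = 0.885). The prolactin receptor gene Prlr went the other way, from 3.95, 7.83 and 5.60 CPM to 3.00, 2.28 and 2.38 CPM (-1.18, adjusted p = 0.0627), and was not called. Cntfr, the receptor subunit that binds ciliary neurotrophic factor, rose from 27.3, 29.8 and 32.2 CPM to 42.5, 41.1 and 38.0 CPM (0.44, SE 0.09, adjusted p = 0.0218), with an adjusted p of 0.167 without mouse 1 of 0 h.

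Bmp4 (ENSMUSG00000021835, chromosome 14, 46383520 to 46390669, minus strand), a secreted growth factor of the TGF-beta family, was at 181, 212 and 207 CPM at 0 h and at 307, 301 and 373 CPM at 1 h. The log2 rise was 0.71 (SE 0.10, adjusted p = 0.00037). It was the one call among 30 BMP and TGF-beta genes, whose median was 0.19. Genes that BMP signalling is known to raise had small positive differences that were not called, with Smad6 at 0.36 (adjusted p = 0.189), Id1 at 0.34 (0.525) and Id3 at 0.29 (0.586).

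Etv5 (ENSMUSG00000013089, chromosome 16, 22381309 to 22439719, minus strand), an ETS transcription factor that FGF signalling induces, went from 78.5, 73.7 and 77.8 CPM to 116, 107 and 111 CPM. Its log2 rise was 0.54 (SE 0.07, adjusted p = 0.00037), and the spread within each group was small beside the gap between them. It was the one call among 26 genes of FGF and ERK feedback. Its relative Etv4 had 2.70 to 3.40 CPM at 0 h and 4.68 to 6.68 CPM at 1 h (0.87, adjusted p = 0.0771), while the ERK phosphatase gene Dusp6 differed by -0.21 (adjusted p = 0.564).

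Several rising genes act on small GTPases, the cytoskeleton or membrane transport; they are grouped here by known role after their values were seen, with no count or test attached. Abr (ENSMUSG00000017631, chromosome 11, 76416734 to 76622314, minus strand), a regulator of small GTPases, was at 252, 260.1 and 278 CPM at 0 h and 367, 381 and 423 CPM at 1 h (0.57, SE 0.09, adjusted p = 0.00398). Arhgef3, a guanine nucleotide exchange factor, was at 124, 124 and 119.7 CPM and then at 175, 169 and 203 CPM (0.57, SE 0.10, adjusted p = 0.012). Rapgef3, the cAMP-activated exchange factor for Rap, rose by 0.30 (SE 0.06, adjusted p = 0.0329), Cdc42ep4, an effector of Cdc42, by 0.49 (SE 0.10, 0.0265), and Cnn2, an actin-binding calponin, by 0.38 (SE 0.08, 0.0472). Cnn2 was the one call among 30 SRF, YAP and actin genes, where 0.337% of all genes tested were called. Of that list 24 members were positive, against 51.4% of all genes tested. DESeq2, with 281 calls in all, called 6 of the list higher, and limma-voom called 2. Fgd4, an exchange factor for Cdc42, fell by 0.44 (SE 0.09, 0.0187). Apart from Abr, each of these lost its call without mouse 1 of 0 h, with adjusted p of 0.0702 for Arhgef3, 0.173 for Rapgef3, 0.258 for Cnn2 and 0.156 for Fgd4, and Cdc42ep4 reached 0.186 without mouse 2 of 1 h.

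Ano1, Slc7a5 and Rab37, named together after their values were seen, were also called higher; the fixed list of RPE identity and epithelial transport had 0 of 45 called. Ano1, a calcium-activated chloride channel, was at 24.5, 22.2 and 21.1 CPM at 0 h and at 36.2, 32.4 and 34.8 CPM at 1 h (0.61, SE 0.12, adjusted p = 0.0222). Slc7a5, a transporter of large neutral amino acids, went from 297, 263 and 271 CPM to 332, 347 and 399 CPM (0.38, SE 0.08, adjusted p = 0.036). Rab37, a GTPase of secretory granules, went from 9.78, 10.7 and 9.31 CPM to 17.6, 24.1 and 20.1 CPM (1.05, SE 0.19, adjusted p = 0.0143). All 3 had separate groups, and all 3 calls ended without mouse 2 of 0 h, among others. The highest adjusted p was 0.11 for Ano1 and 0.158 for Slc7a5 without that mouse and 0.0959 for Rab37 without mouse 2 of 1 h.

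Dok7 and Atp6v1e2 rose from low levels. Dok7, an adaptor of receptor kinases, went from 8.56, 13.2 and 10.5 CPM to 20.8, 19.7 and 25.6 CPM (1.03, SE 0.20, adjusted p = 0.0218), and Atp6v1e2, a V-ATPase subunit, from 9.05, 7.70 and 7.19 CPM to 15.6, 12.1 and 18.2 CPM (0.94, SE 0.19, 0.0215). Atp6v1e2 shares 29.4% of its exonic bases with a gene on the opposite strand. Fabp3, a fatty acid carrier, was the one call among 40 genes of fatty acid oxidation and ketogenesis, with 26.4, 29.4 and 29.1 CPM at 0 h and 45.1, 37.8 and 38.4 CPM at 1 h (0.52, SE 0.11, adjusted p = 0.0436). The share called over all genes tested was 0.337%, which gives few or no calls in a list of this size, so the count is not a result about that list. Of the exonic bases of Fabp3, 19.6% are shared with other genes, mainly Zcchc17 on the opposite strand. Without mouse 1 of 0 h the adjusted p was 0.157 for Dok7 and 0.203 for Fabp3, and without mouse 2 of 0 h it was 0.11 for Atp6v1e2.

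The other called risers were Slc25a34, Lgi4, Dbndd2, Plekhf1, Coq10b, Arrdc3, Tle3, Tmem229b, Etnk2, Endou, Rassf2, Tspan4 and Irf2bpl, with log2 rises from 0.32 for Irf2bpl to 0.74 for Slc25a34. Tle3, a transcriptional corepressor, was called in 5 of the 6 fits without 1 library, and its adjusted p was 0.0555 without mouse 1 of 0 h. Lgi4 shares 44.9% of its exonic bases with Fxyd3 on the opposite strand, so its rise of 0.73 (SE 0.12, adjusted p = 0.00398) cannot be assigned to it with certainty. Without mouse 2 of 1 h its adjusted p was 0.0599.

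C1rb, which encodes a complement protease, had the largest fitted rise and an unusual distribution. Its counts were 1, 3 and 3 in the mice of 0 h and 47, 48 and 56 in those of 1 h, a ratio of 20.9 (95% exact interval 9.91 to 52.9, for counting error only). The remaining 18 libraries held 0 to 5 counts, except mouse 1 of 15 h, which held 55. The fitted log2 change was 4.32 (SE 0.79, adjusted p = 0.012). DESeq2 did not call it, and the call ended without mouse 1 of 0 h (adjusted p = 0.094) or mouse 2 of 0 h. C1rb is a near-identical copy of C1ra, which had 574 to 940 counts in the 6 libraries, so the sharing of reads between the copies is uncertain.

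**Figure D3:**
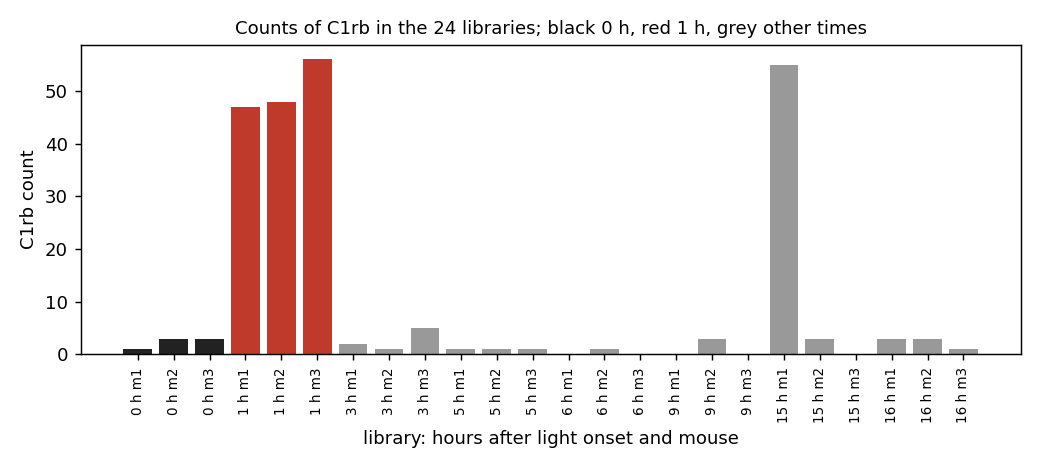
Counts of C1rb (vertical axis) in each of the 24 libraries, labelled by hours after light onset and mouse. The 3 libraries of 1 h and mouse 1 of 15 h hold 47 to 56 counts and the other 20 hold 5 or fewer.

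Among the 25 falling genes, those with the firmest calls were Nmt2 and Syne1. Nmt2 (ENSMUSG00000026643, chromosome 2, 3284212 to 3328877), an enzyme that attaches myristate to proteins, was at 80.2, 71.8 and 67.6 CPM at 0 h and at 48.0, 47.0 and 46.6 CPM at 1 h. It fell by 0.63 on the log2 scale (SE 0.10, adjusted p = 0.0018). Syne1 (ENSMUSG00000096054, chromosome 10, 5020917 to 5551482, minus strand), the nuclear envelope protein nesprin-1, went from 97.0, 107 and 98.2 CPM to 69.7, 69.6 and 70.5 CPM (-0.52, SE 0.07, adjusted p = 0.00037). The mice of 1 h lay within 1 CPM of each other for Syne1 and within 2 CPM for Nmt2.

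Outer segment uptake gave 1 call among 31 genes, and it was a fall. Of all genes tested 0.337% were called, a share that gives few or no calls in a list of this size. Thbs1 (ENSMUSG00000040152, chromosome 2, 118111876 to 118127133), the secreted matrix protein thrombospondin 1, was at 2980.1, 2891 and 2462 CPM at 0 h and at 2006, 1662 and 2257 CPM at 1 h. It fell by 0.49 on the log2 scale (SE 0.09, adjusted p = 0.012), and without mouse 2 of 1 h its adjusted p was 0.0877. The receptors and ligands of binding and engulfment had small differences and were not called. Mertk was at 182 to 199.9 CPM at 0 h and 168 to 213 at 1 h (-0.00, 95% interval -0.16 to 0.15). Itgb5 differed by 0.08 (adjusted p = 0.671), Itgav by -0.11 (0.653), Mfge8 by 0.11 (0.718) and Gas6 by 0.23 (0.276). For the kinase gene Src, the mice of 1 h (130 to 145 CPM) lay above those of 0 h (106 to 121 CPM), but the difference of 0.28 was not called (adjusted p = 0.118). Over the list the median was -0.00 and 15 of 31 members were positive; DESeq2 called 0 higher and 3 lower.

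Few or no calls would fall in lists of this size at the share of all genes called (0.337%), so the counts of autophagy and lysosomal genes that follow are not a result about these genes. In edgeR, 0 of 49 autophagy genes, 0 of 53 lysosomal hydrolases and cofactors, 0 of 42 lysosomal membrane and V-ATPase genes (a list that does not hold the called subunit gene Atp6v1e2) and 0 of 33 MiT/TFE and mTORC1 genes were called, with 8, 7, 2 and 3 below 0.05 before adjustment. DESeq2 called 1 autophagy gene higher and none in the other lists, and limma-voom called 0 in all 4. Medians lay between 0.01 and 0.06. Sqstm1, a receptor for cargo of autophagy, was at 462 to 472 CPM at 0 h and 518 to 549 CPM at 1 h (0.18, adjusted p = 0.196), and Ctsd, an aspartic protease of lysosomes, differed by 0.20 (adjusted p = 0.25). Map1lc3b, which encodes LC3B, differed by 0.02 (95% interval -0.11 to 0.14), Lamp1 by 0.07 (adjusted p = 0.702) and Tfeb by 0.17 (0.57).

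The same holds for the lists of RPE functions. In edgeR, 0 of 29 visual cycle genes, 0 of 45 RPE identity and transport genes and 0 of 28 melanin genes were called, with 4, 8 and 4 below 0.05 before adjustment. DESeq2 called 0, 1 and 1 of them, the last 2 as lower, and limma-voom 0 of each. Rpe65, the retinoid isomerase, differed by 0.05 (95% interval -0.12 to 0.22), and Lrat, which esterifies retinol, by 0.27 (adjusted p = 0.279). Itgb8, an integrin subunit, had 2699.9 to 3512 CPM at 0 h and 2005 to 2443 at 1 h and missed the threshold (-0.49, adjusted p = 0.0637).

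Immediate early genes, the transcription factors that many stimuli induce within minutes, gave 1 call among 31, and it was a fall. Here too the share over all genes tested was 0.337%, which gives few or no calls in such a list. Atf3 was at 13.7, 13.8 and 14.1 CPM at 0 h and at 7.63, 7.26 and 8.90 CPM at 1 h (-0.81, SE 0.15, adjusted p = 0.0147). Leaving out mouse 2 of 1 h gave an adjusted p of 0.104. Mouse 3 of 0 h stood high for 3 others: Egr1 was at 17.0, 33.4 and 117 CPM at 0 h and 19.4 to 25.7 at 1 h, Fos at 6.98, 8.57 and 16.0 and then 2.57 to 7.26 CPM, and Nr4a1 at 15.3, 20.1 and 46.5 and then 20.3 to 23.8 CPM. Their groups overlapped and none was called. DESeq2 called 2 genes of the list higher and 1 lower, and limma-voom 1 and 1. Without mouse 3 of 0 h the number of genes called rose from 62 to 351, with 200 higher and 151 lower.

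Rod and cone transcripts lay lower at 1 h. Summed over 25 rod markers, the level was 6421, 4926 and 4745 CPM in the mice of 0 h and 2463, 3136 and 3755 CPM in those of 1 h, so the groups did not overlap. No rod marker was called by edgeR, DESeq2 or limma-voom, with 15 at an unadjusted p under 0.05. For 22 of the 25, all mice of 1 h lay below all mice of 0 h, with a list median of -1.30. That was so for 8.88% of all genes tested. Inner retina markers summed to 5806 to 6008 CPM at 0 h and 6348 to 6609 CPM at 1 h, above and without overlap, with 10 of 23 tested positive and a median of -0.07. That list holds Rlbp1, which is also among the RPE markers, so its sum does not measure the inner retina alone. Choroid endothelium markers were positive for 19 of 20, with a median of 0.23 and overlapping sums (899 to 1435 CPM and 1109 to 1636 CPM). Single mice stood high for lists whose sums overlapped between the groups. Melanocyte and Schwann cell markers summed to 2714 CPM in mouse 1 of 0 h, against 1331 and 1356 in mice 2 and 3. In mouse 2 of 1 h, skeletal muscle markers summed to 2739 CPM, against 1464 and 983 in mice 1 and 3. Lens and ciliary body markers summed to 570 CPM in that mouse, against 351 and 338. The part of these lists in the results was not tested. In whole tissue RNA, fewer cells of a type and less RNA per cell cannot be told apart.

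The cone opsin gene Opn1mw was called, with 4.01, 1.76 and 3.18 CPM at 0 h and 0.540, 0.586 and 0.752 CPM at 1 h (-2.24, SE 0.44, adjusted p = 0.0187). It was 1 of 12 cone markers tested, whose median was -0.92 and whose summed level was 119.6 to 165 CPM at 0 h and 70.3 to 104 CPM at 1 h. Opn1mw had an adjusted p of 0.124 without mouse 1 of 0 h and was not called by DESeq2. Atp8a2, a phospholipid flippase that photoreceptors express, fell by 1.15 (SE 0.21, adjusted p = 0.0125). It had an adjusted p of 0.213 with the median log2 level of the rod markers as a covariate. Its exons share 15.6% of their bases with a gene on the opposite strand. With that covariate 22 genes were called in all, 16 of them among the 62: Per1, Cish, Per2, Syne1, Etv5, Bmp4, Klf9, Nmt2, Tle3, Lgi4, Cdkn1a, Flrt2, Ccr2, Lrrc1, C1rb and St8sia4. The rod sums did not overlap between the groups, so calls lost with this covariate cannot show a dependence on rod content.

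Several lymphoid and monocyte genes fell, while red blood cell markers overlapped (973 to 1197 CPM at 0 h and 964 to 1386 CPM at 1 h). Igkc, an immunoglobulin light chain constant region, was at 34.3, 25.7 and 19.3 CPM at 0 h and at 9.49, 3.34 and 7.02 CPM at 1 h (-2.00, SE 0.39, adjusted p = 0.045). Jchain, the joining chain of secreted antibodies, fell by 1.60 (SE 0.34, adjusted p = 0.0472), and Ms4a4b, a T cell surface protein, by 1.20 (SE 0.26, 0.036). Ccr2, the chemokine receptor of inflammatory monocytes, was at 12.1, 9.11 and 16.2 CPM and then at 5.70, 3.87 and 4.82 CPM (-1.38, SE 0.24, adjusted p = 0.00751). Cx3cr1, a receptor of microglia and macrophages, fell by 0.76 (SE 0.17, adjusted p = 0.0472).

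Marker lists of these cells were added after these genes had been seen. Over 20 markers of B, T, NK and plasma cells, the summed level was 127, 105 and 92.0 CPM in the mice of 0 h and 63.7, 35.4 and 40.8 CPM in those of 1 h. The list holds Igkc, Jchain and Ms4a4b, which prompted it and are its 3 calls among 19 tested, so that count is no further support. Over 16 monocyte and neutrophil markers, the sum was 131, 129.97 and 189 CPM at 0 h and 119, 96.3 and 93.8 CPM at 1 h, and this list likewise holds the genes that prompted it, Ccr2 among them, which are its 2 calls of 15. The macrophage and mast cell list, fixed earlier, overlapped between groups (2726 to 3499 CPM and 2711 to 2967 CPM) and gave 1 call of 23, Cx3cr1, with 14 of 23 positive and a median of 0.10. Ptprc, the common leukocyte antigen, was at 44.5, 36.7 and 58.7 CPM and then at 31.8, 24.5 and 27.4 CPM (-0.74, adjusted p = 0.0795). None of these lists had a member at 0 in all 6 libraries. With the Ptprc level as a covariate, 3 of the 62 genes were called, namely Per1, Cish and Nt5e. Because that level itself differed between the groups without overlap, calls lost in this fit cannot show a dependence on leukocyte content.

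Of these immune genes, Ccr2 lost its call only without mouse 2 of 1 h among the fits that left out a library (adjusted p = 0.0712). Without mouse 1 of 0 h the adjusted p was 0.172 for Igkc and 0.20 for Jchain, and without mouse 2 of 1 h it was 0.15 for Ms4a4b. Cx3cr1 was called in none of the 6, with an adjusted p of up to 0.124 (without mouse 3 of 1 h).

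**Figure D4:**
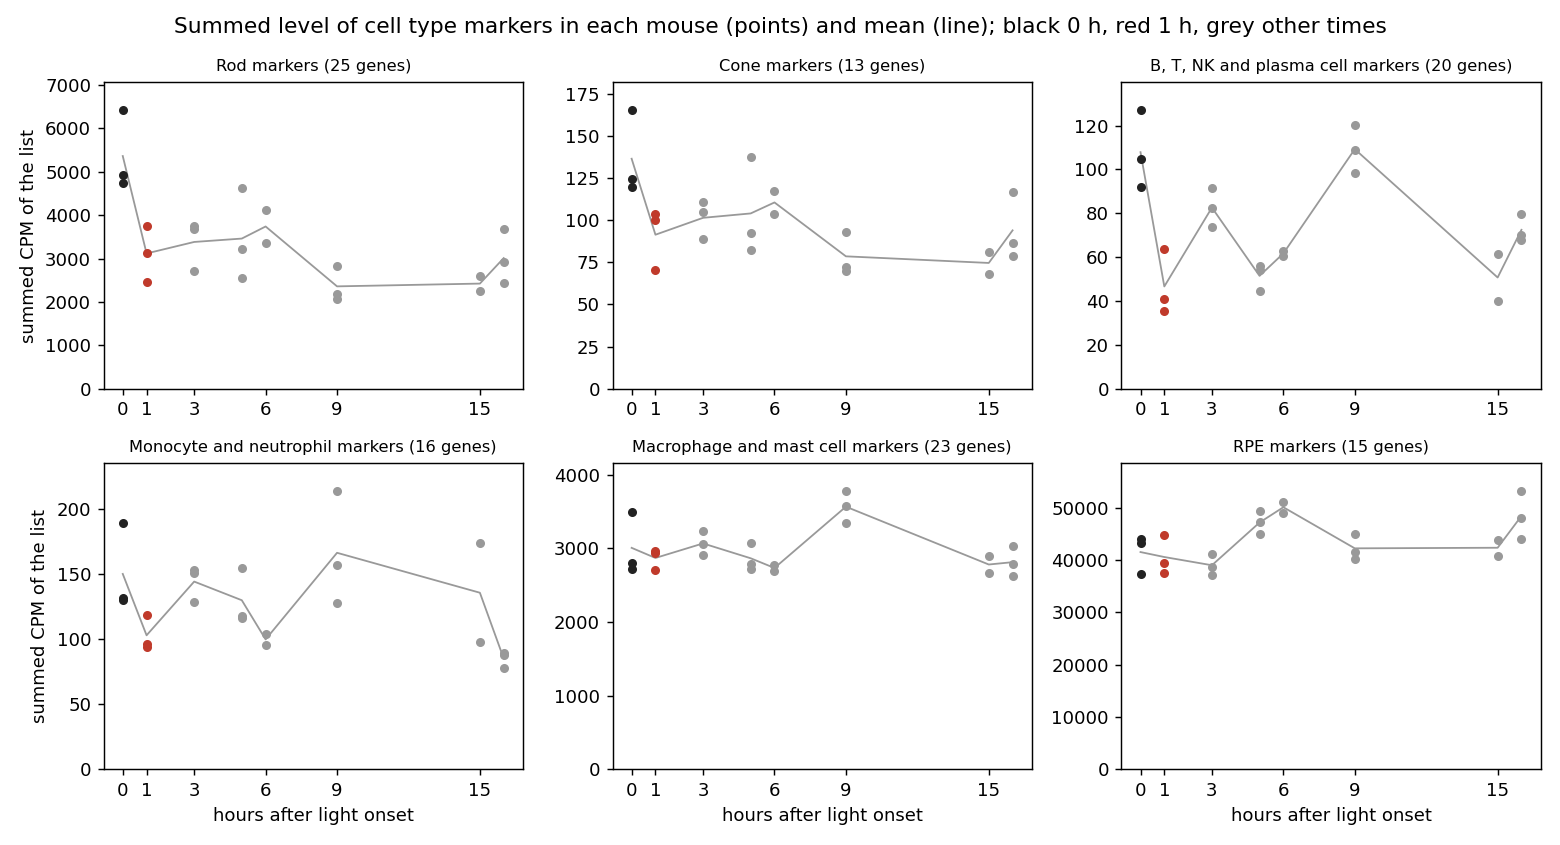
Summed CPM of 6 marker lists (vertical axes) against hours after light onset, with 1 point per mouse for 22 libraries and a line through the means. At 1 h (red) the sums of rod, cone, lymphoid and monocyte markers lie below all mice of 0 h (black), whereas the RPE and macrophage sums overlap.

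The remaining falls included genes of adhesion and signalling. Nt5e, the ecto-enzyme CD73 that makes adenosine from AMP, was at 69.1, 67.7 and 59.5 CPM at 0 h and at 43.5, 44.5 and 50.8 CPM at 1 h (-0.50, SE 0.08, adjusted p = 0.00535). Flrt2, an adhesion protein, went from 123, 117 and 96.3 CPM to 82.4, 74.9 and 78.5 CPM (-0.51, SE 0.09, adjusted p = 0.00751), and Tnfaip3, the NF-kB inhibitor A20, from 39.7, 35.3 and 40.0 CPM to 19.3, 25.7 and 26.5 CPM (-0.69, SE 0.13, 0.0144). Without mouse 2 of 1 h the adjusted p was 0.0599 for Nt5e and 0.0675 for Flrt2, and without mouse 1 of 1 h it was 0.0927 for Tnfaip3. St8sia4, Itga4, Pcdhac2, Lrrc1, Mxd1, Patj, Lgalsl and Zfand5 fell by 0.32 to 1.28 on the log2 scale. Pcdhac2 shares 48.6% of its exonic bases with a gene of the same cluster, so its reads cannot be assigned with certainty.

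The levels at later times, given as a description with no test, differed between rises and falls most at 3 h and 16 h. The genes were chosen by their difference between 0 h and 1 h. Extremes at those times, and later means that lie back towards 0 h, are therefore partly built in by the choice. Of the 37 risers, 27 had a 3 h mean nearer to 0 h than to 1 h, and the median gene kept 33.1% of its 1 h difference. From 5 h to 16 h, 21 to 26 of the 37 were again nearer to 1 h. For 16 of them 1 h was the highest of the 8 times and for 21 of them 0 h was the lowest. Of the 25 fallers, 18 were nearer to 1 h at 3 h, with a median of 74.3% of the difference kept. At 5, 6 and 9 h the median kept was 70.3, 79.4 and 68.0% for the risers and 78.9, 77.2 and 76.0% for the fallers. At 16 h it was 70.4% and 40.0%, and 15 of the fallers were nearer to 0 h. For 16 of the fallers 0 h was the highest of the 8 times.

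Single genes took different courses. Cdkn1a averaged 25.1 CPM at 1 h and 11.5 to 15.1 at every other time, so its peak was confined to 1 h among the times sampled. Klf9 was at 48.1 CPM at 3 h and at 76.1 at 16 h, after 79.0 at 1 h. Tsc22d3 had a mean of 45.3 CPM at 3 h and of 111 CPM at 15 h and 108 CPM at 16 h. Per2, by contrast, had means of 52.8 (1 h), 49.5 (3 h) and 94.1 CPM (9 h). Etv5 and Bmp4 were highest at 5 h, with means of 146 and 415 CPM. Thbs1 had its lowest mean, 1116 CPM, at 9 h, and Syne1 had its lowest, 48.8 CPM, at 6 h.

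**Figure D5:**
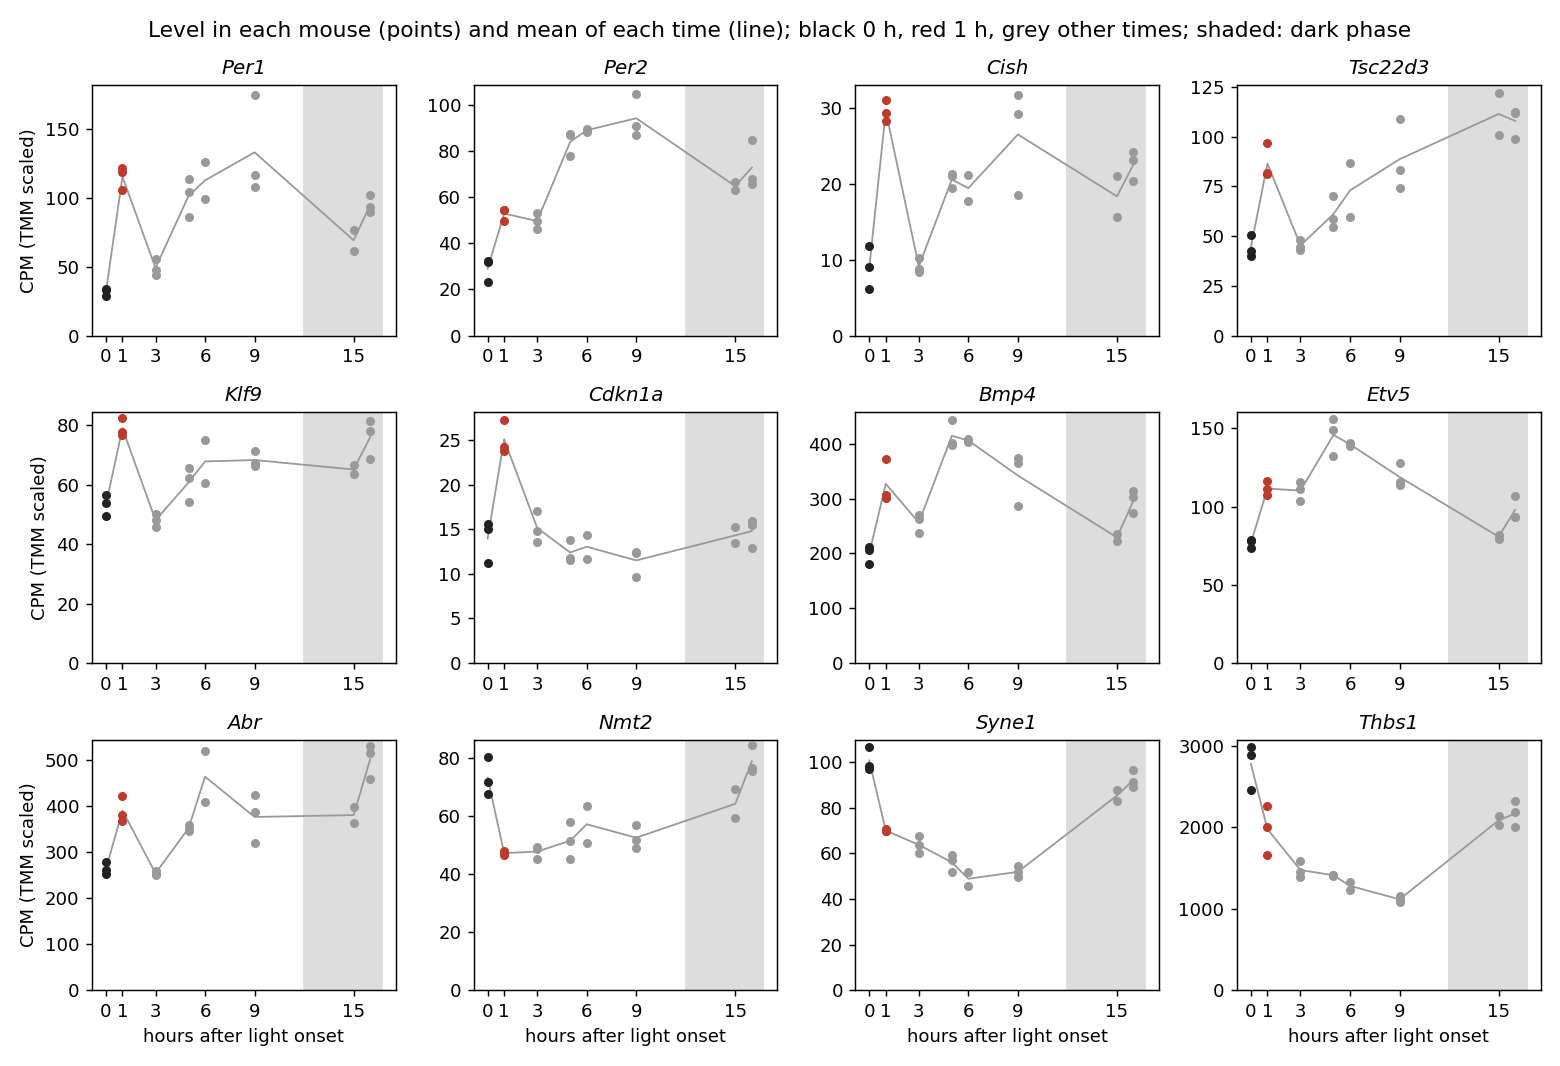
CPM of 12 called genes (vertical axes) against hours after light onset, with 1 point per mouse for 22 libraries, a line through the means and the dark phase shaded. Per1, Cish, Tsc22d3, Klf9, Cdkn1a and Abr are lower at 3 h than at 1 h, whereas Per2 and Etv5 lie close to their 1 h means and Nmt2, Syne1 and Thbs1 stay low through 9 h.

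Promoter sequences are shown for 3 risers of the glucocorticoid list and for Cish. Each is the first window by position that holds a motif chosen for that gene, so the presence of that motif was fixed by the choice. The motifs were an E-box for Per1, a glucocorticoid response element for Sgk1, an AP-1 site for Klf9 and a STAT site for Cish. The other windows of Sgk1, and those of Tsc22d3 and Cdkn1a, hold no glucocorticoid response element. They come from RefSeq (GRCm38.p6), whose windows run from 250 bases before to 50 bases after each annotated start. Windows were found for 29 of the 37 risers (57 windows) and 20 of the 25 fallers (30 windows). The first 3 sequences are the 250 bases before a start and the last is 30 bases at the start of Cish, all on the plus strand, at chr11:69098699-69098948 for Per1, chr10:21993640-21993889 for Sgk1, chr19:23140976-23141225 for Klf9 and chr9:107296654-107296683 for Cish. Capitals mark matches to CACGTG (E-box, bound by clock activators), the palindromic glucocorticoid response element, TGANTCA (AP-1) and TTCNNNGAA (STAT).
Per1: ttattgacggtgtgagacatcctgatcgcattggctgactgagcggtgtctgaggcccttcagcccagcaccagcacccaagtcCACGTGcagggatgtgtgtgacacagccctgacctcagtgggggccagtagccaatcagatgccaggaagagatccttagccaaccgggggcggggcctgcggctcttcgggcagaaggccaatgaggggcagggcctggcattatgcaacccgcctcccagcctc
Sgk1: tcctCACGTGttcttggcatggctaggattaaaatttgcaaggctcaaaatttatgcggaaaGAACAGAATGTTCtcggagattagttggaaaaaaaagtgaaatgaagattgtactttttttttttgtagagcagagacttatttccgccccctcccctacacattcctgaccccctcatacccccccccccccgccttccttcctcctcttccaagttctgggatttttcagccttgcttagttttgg
Klf9: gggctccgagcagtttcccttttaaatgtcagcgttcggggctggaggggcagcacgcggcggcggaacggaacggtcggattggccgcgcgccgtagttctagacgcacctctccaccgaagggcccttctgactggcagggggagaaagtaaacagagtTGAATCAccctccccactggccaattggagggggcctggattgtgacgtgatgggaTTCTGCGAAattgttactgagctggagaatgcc
Cish: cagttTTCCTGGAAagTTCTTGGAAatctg

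In the Per1 sequence the match is an E-box, in Sgk1 an E-box and a glucocorticoid response element, in Klf9 an AP-1 and a STAT match, and in Cish a pair of STAT matches. Searched on both strands, the glucocorticoid element was found in 1.75% of the risers' windows (Sgk1 alone), 0% of the fallers' and 0.475% of all 32851 windows. STAT matches were in 10.5% of the risers' windows (C1rb, Cish, Klf9, Per1, Sgk1 and Tsc22d3), 0% of the fallers' and 8.3% of all. E-boxes were in 10.5%, 6.67% and 7.15%, AP-1 matches in 7.02%, 13.3% and 7.81%, and the full cAMP element TGACGTCA in 1.75%, 0% and 1.79%. Its core TGACG, which the full element contains, was in 29.8%, 33.3% and 20.8%, and the serum response element in 0%, 0% and 0.0639%. The window counts are small, and several windows belong to 1 gene, so the shares are a description with no test.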

How the data were processed

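RNA of the RPE of 24 mice was sequenced from total RNA; the library kit in the labels' protocols gives reads without strand. The authors deposited 1 table of raw counts per gene. STAR, HTSeq and mm10 appear in the submitters' processing notes; versions, settings and annotation are not given in the sources used here. For testing, edgeR 4.0.16 (R 4.3.3) took genes kept by filterByExpr (minimum count 10; 18388 of 54532 genes, 99.9% of counts), TMM scaling, estimateDisp, glmQLFit with robust priors and glmQLFTest for 1 h minus 0 h, each time having its own coefficient across 22 libraries, with Benjamini-Hochberg adjustment over all genes. Each adjusted p in the text comes from this test unless another tool is named. CPM values are TMM scaled. Alternatives used DESeq2 1.42.0 and limma 3.58.1 (voom), other scalings, filters, libraries and covariates.

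Genes and lists were chosen with earlier results of these data known; the lymphoid and monocyte lists, the cone and Ptprc covariates and the filter over 24 libraries were added after the fit was seen. The naming rule took the 15 largest called rises and falls with a mean of at least 5 CPM, all called list members, the 4 lowest p of each list and a set of pathway genes; other names were chosen after their values were seen. All 15 pairs of the 6 libraries differed by more than sampling noise (chi-square per degree of freedom at least 7.68). The labels number the libraries of a time as biological replicates and the design calls them mice. Gene identifiers and gene positions (counted from 1) are those of the deposited counts, and exon overlaps are from GENCODE vM21 (GRCm38). Of the 62 called genes, 10 share over 10% of their exonic bases with another gene. Because the reads carry no strand, such reads cannot be told apart. On simulated counts for this comparison (18388 genes), 80% of 50 genes changed 1.5-fold and 90% of 50 changed 2-fold were called, with 12 false among 193 calls. The changed genes all had a mean of at least 5 CPM. Counts were drawn independently, without shifts of cell content between mice, so these shares need not hold for the real libraries. One called gene and 1 marker are not reported here.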

Additional observations from a re-analysis of the deposited data

How the results depend on the processing

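All directions of the 62 called genes held in all alternatives run (0 reversed of 1178 values), while 468 of those values no longer passed the threshold. In place of 62 calls (37 higher, 25 lower), all 24 libraries gave 2 (2 and 0, with 711 genes at an unadjusted p under 0.05), the 6 libraries alone 28 (21 and 7), DESeq2 281 (131 and 150), no filter on low counts 883 (392 and 491), the rod marker level as a covariate 22 (13 and 9), and, chosen after seeing the data, the cone marker level 25 (16 and 9) and the Ptprc level 5 (4 and 1). Leaving out 1 library gave 13 to 351 calls, with 8 to 200 higher and 3 to 151 lower: 13 without mouse 1 of 0 h, 22 without mouse 2, 351 without mouse 3, and 40, 16 and 53 without mouse 1, 2 and 3 of 1 h. The causes were not tested. Other scalings, limma-voom, a minimum count of 30 and the filter over 24 libraries gave 65 to 73 calls, and scaling moved the median of all genes by under 0.1. With the replicate block 54 genes were called (35 and 19), 49 of them among the 62. Deviations from the group mean had correlations of 0.09, -0.07 and 0.08 for same-numbered mice, and of -0.23 to 0.19 for differently numbered ones. With 3 mice in each group these values cannot decide whether the numbers pair the mice. At these depths genes under a few CPM, such as C1rb and Opn1mw, rest on few counts. The groups hold 3 mice each, and the split by direction was 37 to 25 with TMM and 36 to 29 with RLE size factors.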
